A study of Mus musculus with 17 samples.

Results

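Gene expression was compared between bone marrow eosinophils of PirB knockout and wildtype mice that had been fed doxycycline (Dox) food. The comparison takes 6 of the 17 Affymetrix arrays of the series, 3 from knockout and 3 from wildtype mice, and 22180 genes were measured on each. Both genotypes carried the CC10-IL13Tg transgene, so interleukin-13 (IL-13) was switched on by Dox in the controls too. The knockout mice were CC10-IL13Tg/Pirb-/- and the wildtype mice were their CC10-IL13Tg/Pirb+/+ littermates, aged 6 to 8 weeks, of both sexes, and on Dox food for 2 weeks. Eosinophils were sorted as CD45+, SiglecF+ and CCR3+ cells, and RNA was amplified before labelling. Other arrays of the series, used below only where they bear on this comparison, came from marrow without Dox (2 wildtype and 3 knockout arrays) and from the esophagus with Dox (3 and 3), all with the same transgene. The CC10 promoter is active in airway epithelial cells, so the transgene was not driven by the eosinophils themselves. Knockout replicate 3 of marrow without Dox stood apart from the other marrow arrays, with an SD over genes of 0.802 where theirs lay between 0.231 and 0.284, and values that rest on it are given with and without it. No label says whether an array is 1 mouse or a pool, and a p-value here reflects the scatter among these samples alone, which may be technical.

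PIR-B, paired immunoglobulin-like receptor B, is an inhibitory receptor on the surface of mouse myeloid and B cells. Src family kinases phosphorylate the inhibitory motifs (ITIMs) of its tail, which then hold the phosphatases SHP-1 and SHP-2 and dampen signals from activating and cytokine receptors. Eosinophils mature in the marrow under interleukin-5 (IL-5), fill their granules with basic proteins and ribonucleases, and leave for the tissues through the eotaxin receptor CCR3. IL-13 and interleukin-4 (IL-4) act on them through receptors that hold IL-4Rα and activate the transcription factor STAT6.

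No gene differed between the genotypes beyond the spread of the arrays after adjustment for all genes tested. The gene with the most negative difference, knockout minus wildtype, was Retnla, which encodes the secreted resistin-like protein RELM-α and is a well-known IL-4 and IL-13 target in myeloid cells. Because IL-13 is the agent that Dox switches on in these mice, the 300 bases around the start of Retnla are shown. They run from 250 bases before the start to 50 after it, on the plus strand of GRCm38.p6 at chr16:48842359-48842658, as given by RefSeq. The capitals mark the letters that match TTCNNNNGAA, the spacing that STAT6 binds, in a search that covered both strands (the motif reads the same on each).

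Retnla: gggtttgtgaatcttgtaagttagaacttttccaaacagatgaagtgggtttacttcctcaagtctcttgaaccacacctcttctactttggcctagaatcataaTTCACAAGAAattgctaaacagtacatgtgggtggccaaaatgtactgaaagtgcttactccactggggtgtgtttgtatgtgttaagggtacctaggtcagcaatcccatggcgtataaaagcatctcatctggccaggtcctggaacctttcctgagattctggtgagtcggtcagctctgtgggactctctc

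The match, TTCACAAGAA, lies 145 to 136 bases before the start. A match to TTCNNNNGAA, with any letters at the N positions, occurred in 2284 of 32851 promoter windows of that length (6.95%). Of the 32 measured genes in a list of IL-4 and IL-13 receptors and responses, 20 had such a window and 4 held a match, namely Ccl17, Clec7a, Fcer2a and Retnla. A match is a description of the sequence, and binding was not measured.

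Each value is a log2 distance: 0 marks the level of the middle array for that probe set, not a low level. The log base is assumed, and brightness is unknown. Retnla was at 1.68, 0.55 and 0.86 in wildtype replicates 1 to 3 and at -0.59, -1.33 and -0.55 in knockout replicates 1 to 3. All 3 knockout arrays lay below all 3 wildtype arrays. The difference was -1.86 ± 0.35 (standard error, SE), with a 95% interval of -2.70 to -1.01, and on the linear scale wildtype was 3.62-fold higher. It did not pass the test (limma, adjusted p = 0.730). An exact permutation test of 3 arrays against 3, two-sided, gave p = 0.1, the smallest that this design allows. With each array left out in turn the difference lay between -2.09 and -1.53.

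Retnla spanned a wide range over the 6 groups of the series, and the Dox marrow arrays stood in the middle of it. In marrow without Dox the group means were -3.20 ± 0.53 in wildtype (SD, n = 2) and -2.88 ± 1.31 in knockout (SD, n = 3). With Dox they were 1.03 ± 0.58 and -0.82 ± 0.44 (SD, n = 3 each). In the esophagus they were 3.03 ± 0.10 and 2.86 ± 0.14 (SD, n = 3 each), so the genotypes there differed by -0.17 ± 0.28 (SE). Whether the genotype difference itself changes with Dox or with tissue was tested with interaction terms. Without the outlying array the difference in marrow without Dox was 0.66 in place of 0.32. Neither interaction passed for Retnla (limma, adjusted p = 0.693 for Dox, 0.611 without the outlying array, and 0.317 for tissue).

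**Figure D1:**
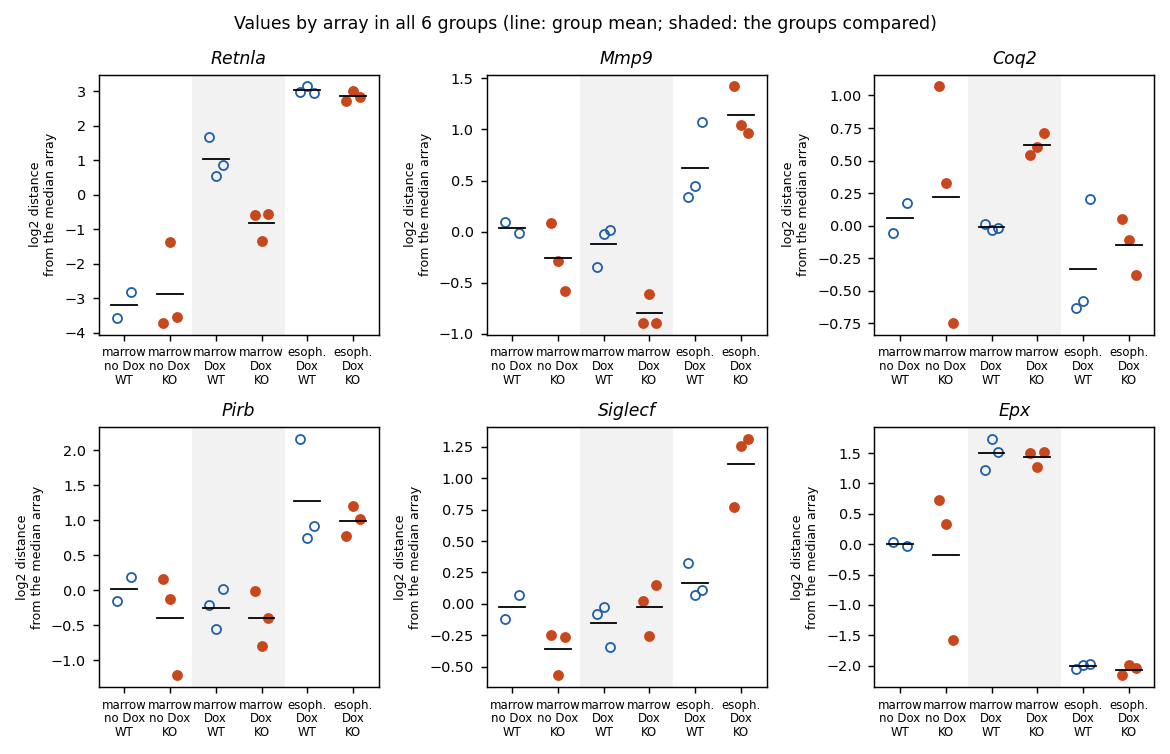
Values of 6 genes on every array, as log2 distance from the median array, in the 6 groups of the series (open blue circles, wildtype; filled red circles, knockout; line, group mean; shaded, the groups compared here). Retnla, Mmp9 and Coq2 show Dox marrow arrays apart by genotype, while Pirb, Siglecf and Epx overlap there.

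Across all genes, 0 of 22180 (0%) passed the threshold of 0.05 in either direction, and the smallest adjusted p was 0.602 (limma, Benjamini-Hochberg). Without adjustment, 1397 genes (6.3%) had p under 0.05, of which 682 (3.07%) were higher and 715 (3.22%) lower in knockout. Median centring of each array turned that balance, to 804 higher and 540 lower, as did the replicate number as a block, with 757 and 614. The 3 arrays of each genotype did not overlap in 2601 genes (11.7%), with knockout above wildtype in 911 (4.11%) and below it in 1690 (7.62%). Under median centring these were 1260 and 1177, so the excess of lower separations depends on the scaling. A positive difference was found in 9129 genes (41.2%), and the median difference over all genes was -0.0202. Under median centring 49.8% were positive.

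The gene lists described below are read against these shares. Their medians are small and rest on few arrays: with each of the 6 arrays left out in turn, the median kept its sign in 26 of the 46 lists and turned in 20. In 2 lists, the immediate-early and NF-kB genes, it also stayed within 1.5 times.

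The differences were small and, for most genes, had narrow intervals. Brightness is unknown, so dim probe sets may be among those genes, and a narrow interval there need not bound the difference in RNA. The absolute difference had a median of 0.0725 and a 99th percentile of 0.639. The 95% interval of the difference lay within ±0.5 for 17238 genes (77.72%) and within ±1, a 2-fold change, for 21263 genes (95.87%). Only 41 genes had a difference of more than 1 in size, 28 positive and 13 negative. Small nucleolar and microRNA genes are among them, with Snora20 at 2.63 the most positive of all and Snora7a at -1.75 the next after Retnla on the negative side.

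**Figure D2:**
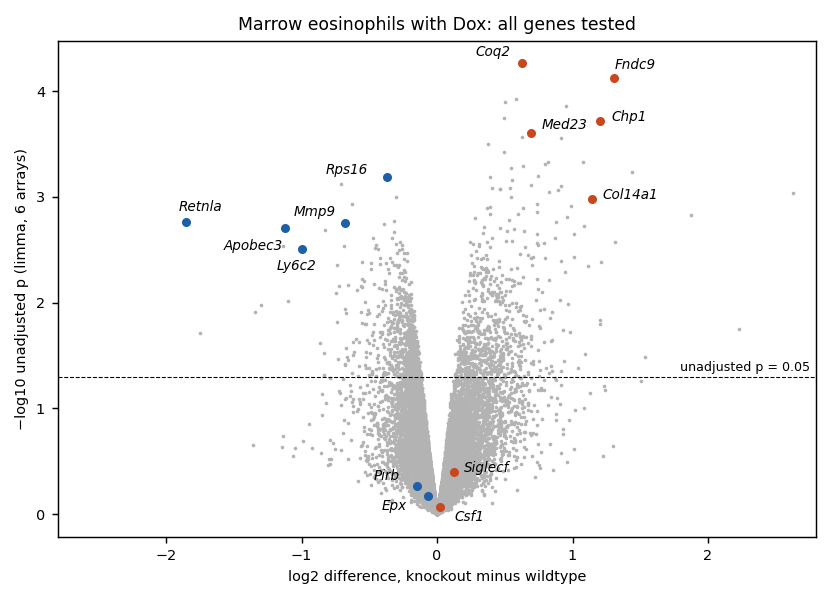
Difference of each of the 22180 genes (horizontal axis, log2, knockout minus wildtype) against its unadjusted limma p (vertical axis, −log10); coloured points are named genes with a positive (red) or negative (blue) difference. Retnla lies farthest left, and Pirb, Epx, Siglecf and Csf1 lie near the bottom centre.

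The 6 arrays were not equally alike. Across genes, the 3 knockout arrays correlated with each other at r = 0.531 to 0.599 and the 3 wildtype arrays at 0.253 to 0.409, and genes are not independent replicates. Wildtype replicate 1 correlated more with the knockout arrays (0.505 to 0.539) than with its own group (0.319 to 0.409). Wildtype replicate 3 was the least like the others and held the highest of the 6 values in 6841 genes. No pair of arrays was a duplicate, with at most 0.0225% of values identical.

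The targeted gene did not separate the genotypes on these arrays. Pirb was at -0.21, -0.55 and 0.013 in wildtype and at -0.013, -0.79 and -0.39 in knockout replicates 1 to 3, and the groups overlapped. The difference was -0.15 ± 0.23 (SE), with an interval of -0.71 to 0.41 (limma, adjusted p = 0.936; exact permutation p = 0.6, two-sided). Whether its probes fall in the deleted exons is unknown, so the array neither checks the labels nor goes against them.

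Genes near Pirb were examined because a littermate comparison around a targeted gene can hold linked differences. Of 51 measured genes in the neighbourhood on chromosome 7, 19 had a positive difference and the median was -0.036. The arrays of the genotypes were apart in 8 of them (15.7%, against 11.7% of all genes), 3 higher and 5 lower in knockout. The largest difference was that of Cox6b2, a testis form of a cytochrome oxidase subunit, at 0.59 with overlapping arrays. The 3 apart and higher were the ribosomal protein genes Rpl28 (0.33) and Rps9 (0.12) and the kinase gene Sbk2 (0.092). Lilra5, an activating receptor of the same family, was at 0.37, 0.21 and 0.86 in wildtype and 0.19, -0.13 and 0.15 in knockout, a difference of -0.41. Tarm1, another receptor of the cluster, differed by -0.50 with overlapping arrays, and Fiz1, a zinc finger protein gene, by -0.51 without overlap. None passed the test.

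The genes that define the sort did not separate the genotypes. Siglecf, the Siglec that marks mouse eosinophils and is itself an ITIM receptor, was at -0.082, -0.021 and -0.34 in wildtype and 0.021, -0.25 and 0.15 in knockout, with a difference of 0.12 ± 0.13 (SE, interval -0.21 to 0.45). Ccr3 differed by 0.095 (interval -0.47 to 0.66), and Ptprc, which encodes CD45, by -0.028 (interval -0.23 to 0.18). Il5ra, which encodes a chain of the IL-5 receptor, had a wide interval, -0.80 to 1.22, because knockout replicates ran from -0.87 to 0.78.

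In a list of eosinophil identity and gate genes, 14 of 20 had a positive difference, against 41.2% of all genes, with a median of 0.11 and no gene apart. That median rested partly on knockout replicate 3, without which it was 0.011. Adgre4, an adhesion receptor of myeloid cells, had the largest difference of the list at 0.53, with overlapping arrays. Alox15, the lipoxygenase of mature eosinophils, differed by 0.30, Itgam, which encodes CD11b, by 0.34, and Cd69, an activation marker, by -0.31. None of the 20 passed the test or had p under 0.05 before adjustment.

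The granule proteins are the bulk product of a marrow eosinophil, and their genes did not separate the genotypes. Prg2, the major basic protein, was at 0.20, 0.24 and 0.29 in wildtype and 0.27, 0.17 and 0.24 in knockout, so the arrays overlapped over a narrow range. Its difference was -0.017 ± 0.056 (SE), and the interval of -0.15 to 0.12 lay within ±0.5. Epx, the eosinophil peroxidase, was at 1.23, 1.74 and 1.52 in wildtype and 1.5, 1.27 and 1.52 in knockout, with a difference of -0.065 ± 0.14 (SE, interval -0.42 to 0.29).

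The ribonucleases of the granule differed more among themselves. Ear6 was at 0.56, 1.002 and 0.78 in wildtype and 0.69, 0.44 and 0.55 in knockout, a difference of -0.22, and Ear10 differed by -0.13. Rnase2a differed by -0.82 and Rnase12 by 1.30, and in both the arrays overlapped. For Rnase12 a single array, wildtype replicate 1 at -1.64, stood apart from the other 5, which lay between 1.73 and 2.33. Of the 9 granule genes measured, 7 had a negative difference, the median was -0.068 and none was apart. With 1 array left out the median lay between -0.137 (without wildtype replicate 1) and -0.0486 (without wildtype replicate 2), and 1 to 4 genes were positive. The Ear genes are near-identical copies, so their probes may share signal.

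The transcription regulators of the lineage showed small differences. Gata1 differed by 0.071 (interval -0.18 to 0.32) and Cebpe by 0.13 (interval -0.15 to 0.41), both with overlapping arrays. Gfi1b, a repressor best known in erythroid cells and platelets, had the largest difference of the 23 regulators measured. It was at 0.051, 0.032 and -0.047 in wildtype and -0.42, -0.17 and -0.19 in knockout, a difference of -0.27 without overlap (limma, adjusted p = 0.773). Runx1 (-0.13) and Trib1 (0.15) were also apart, and the other 20 overlapped. Thus 13% of the list was apart, near the 11.7% of all genes.

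Other inhibitory receptors could stand beside PIR-B on the same cells. Of 24 measured genes in a list of PIR-B and ITIM receptors, 3 were apart (12.5%, near the 11.7% of all genes). In the list 17 genes had a positive difference, and the median was 0.054. Without knockout replicate 3 the count was 12 and the median 0.016, and under quantile normalization they were 13 and 0.032. Cd33, a Siglec of the list whose inhibitory role in mice was not examined here, was at -0.56, -0.64 and -0.27 in wildtype and -0.018, 0.018 and 0.056 in knockout. All knockout arrays lay above all wildtype arrays, with a difference of 0.51 ± 0.10 (SE, interval 0.26 to 0.77; limma, adjusted p = 0.738). Clec4a2, which encodes the C-type lectin receptor DCIR, was apart at 0.30, and Sirpa, the receptor for CD47, at -0.27.

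The phosphatases that ITIMs recruit did not separate by genotype. Ptpn6, which encodes SHP-1, was at 0.12, -0.063 and 0.16 in wildtype and 0.17, 0.063 and 0.072 in knockout, a difference of 0.028 with an interval of -0.16 to 0.22. Ptpn11, which encodes SHP-2, was at 0.81, -0.14 and 0.26 and 0.51, 1.03 and 1.08, so that knockout replicate 1 lay within the wildtype range, and its difference was 0.56 ± 0.27 (SE, interval -0.10 to 1.23). Inpp5d, the lipid phosphatase SHIP-1, differed by -0.22 (interval -0.50 to 0.062). None of the 17 phosphatases and adaptors measured was apart.

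Among Src and Syk family kinases and their partners, 1 of 18 genes was apart (5.56%, against 11.7% of all genes). It was Vav1, a guanine nucleotide exchange factor that these kinases phosphorylate, at 0.31, 0.16 and 0.36 in wildtype and 0.68, 0.86 and 0.93 in knockout. The difference was 0.55 ± 0.092 (SE, interval 0.32 to 0.77; limma, adjusted p = 0.657). On the activating side, Treml2 (0.47) and Trem3 (0.30) were apart and higher among 22 Fc and ITAM receptor genes (9.09%). Clec7a, the β-glucan receptor Dectin-1, had the largest difference of that list, -0.73, with overlapping arrays and an interval of -1.53 to 0.078.

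IL-5, interleukin-3 and GM-CSF signal through a shared receptor chain and keep eosinophils alive. Csf2rb, which encodes that chain, differed by 0.028 (interval -0.31 to 0.36). Of 24 measured genes 12 had a positive difference, or 7 without knockout replicate 3. The 3 that were apart (12.5%, near the share of all genes) were lower in knockout. These were the survival kinase gene Pim3 at -0.32, the Janus kinase gene Tyk2 at -0.20 and the survival gene Mcl1 at -0.16. Pim3 was at -0.25, 0.037 and -0.037 in wildtype and -0.49, -0.38 and -0.35 in knockout (limma, adjusted p = 0.772).

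In the IL-4 and IL-13 list, Retnla stood alone in size. Of its 32 measured members, 15 had a positive difference and 17 a negative one, and the median was -0.032 against -0.0202 over all genes. Il4ra, the shared receptor chain, was at 0.15, 0.10 and 0.80 in wildtype and -0.38, 0.025 and 0.21 in knockout, with a difference of -0.40 ± 0.24 (SE, interval -0.98 to 0.18). Il13ra1 differed by -0.26 (interval -0.76 to 0.24) and Stat6 by 0.10 (interval -0.14 to 0.34), both with overlap. Chil3, the chitinase-like protein Ym1 that often moves with Retnla in alternatively activated macrophages, was at 0.74, 0.013 and 0.56 in wildtype and -0.013, -0.16 and 0.048 in knockout, a difference of -0.48. Its groups overlapped by wildtype replicate 2 only. Ccl24, the chemokine eotaxin-2, differed by 0.53, and there knockout replicate 1 at 1.73 stood above the other 5 arrays. Fcer2a, the low-affinity IgE receptor, was the other member apart, at 0.090, so 6.25% of the list was apart, against 11.7% of all genes.

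Receptors for chemoattractants and adhesion gave a few small separations, in 13.8% and 6.9% of their lists, against 11.7% of all genes. Of 29 chemoattractant receptors, Cxcr4, which holds granulocytes in the marrow, was apart at 0.28, and the leukotriene receptor gene Cysltr2 at 0.16. S1pr1 (-0.20) and Cxcr1 (-0.15) were apart and lower in knockout. Ccr2 had the largest difference of the list, 0.51, with overlapping arrays. Among 29 adhesion genes, Selplg, the selectin ligand PSGL-1, was apart at -0.33 and the integrin gene Itgb1 at 0.27. Itgam, at 0.34, had the largest difference of that list.

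Cytokines and lipid mediator genes were apart in 5.13% and 14.3% of their lists, against 11.7% of all genes. Tgfb1 was at -0.16, -0.011 and -0.58 in wildtype and 0.56, 0.061 and 0.45 in knockout, a difference of 0.61 ± 0.19 (SE, interval 0.14 to 1.08; limma, adjusted p = 0.773). It had the largest difference among 39 cytokine and growth factor genes, of which Tgfb3 (-0.10) was the other gene apart. Among 21 lipid mediator genes, Lta4h, the enzyme that makes leukotriene B4, was apart at 0.28, Dpep2 at 0.28 and Ptges3 at 0.19. Hpgd, which degrades prostaglandins, had the largest difference of the list, 0.41, with overlap. Tnf, at -0.49, had the largest difference of 30 NF-kB genes, with overlapping arrays and an interval of -1.09 to 0.12.

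Immediate-early genes, which are induced within minutes of stimulation or handling, leaned to the negative side. Of 33 measured genes 26 had a negative difference and 7 a positive one (21.2%, against 41.2% of all genes), and the median was -0.089. The array medians of the list were -0.083, -0.093 and -0.10 on the wildtype arrays and -0.26, -0.19 and -0.15 on the knockout arrays. Btg2, an antiproliferative gene, was at -0.040, 0.35 and -0.45 in wildtype and -1.25, -1.05 and -0.35 in knockout, a difference of -0.84 with overlap. Egr2 differed by -0.32, Maff by -0.33, Klf2 by -0.29 and Fos by 0.046. Ier2 (-0.18) and Atf3 (-0.15) were apart and lower, and Rgs2 (0.18) apart and higher (9.09% in all, against 11.7% of all genes). The median stayed between -0.095 and -0.065 with each array left out in turn, and no gene of the list passed the test.

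Cell cycle and replication genes leaned the other way. Of 57 measured genes 41 had a positive difference (71.9%), and the median was 0.12. Array medians were 0.38, 0.18 and 0.16 on the wildtype arrays and 0.45, 0.39 and 0.36 on the knockout arrays, so wildtype replicate 1 lay as high as the knockout arrays. Without it the median difference was 0.20, and without wildtype replicate 2 or 3 it was 0.048 and 0.047. Arrays were apart in 8 genes (14%, against 11.7% of all genes), and 7 of them (12.3%, against 4.11%) were higher in knockout. Cdc25c, the phosphatase that starts mitosis, had the largest difference, 0.60, with overlap. Cdc6, which loads the replicative helicase, was at 0.081, 0.089 and -0.074 in wildtype and 0.70, 0.61 and 0.45 in knockout, a difference of 0.56 ± 0.087 (SE; limma, adjusted p = 0.630). Hells (0.46), the kinesin gene Kif11 (0.40), the spindle gene Prc1 (0.35) and the helicase gene Mcm2 (0.27) were also apart. Mki67, the usual marker of cycling cells, differed by 0.040 with an interval of -0.23 to 0.31, and its arrays overlapped.

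Genes of the translation and respiration machinery had many small positive differences. Of 64 cytosolic ribosomal protein genes 40 were positive (62.5%, against 41.2% of all genes), with a median of 0.042 that was 0.0208 without knockout replicate 2 and 0.0278 without wildtype replicate 3. Arrays were apart in 16 (25.0%, against 11.7%), 14 higher and 2 lower in knockout, and under quantile normalization the 14 became 10. Rpl29 had the largest difference, 0.58, with overlap. Rps26 (0.37), Rpl28 (0.33) and Rps25 (0.30) were among the 14 as deposited, while Rps16 was at -0.048, 0.051 and -0.064 in wildtype and -0.35, -0.42 and -0.40 in knockout, a difference of -0.37 ± 0.057 (SE). Ribosomal protein genes have many processed copies, so their probe sets may share signal.

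Of 77 oxidative phosphorylation subunits 52 were positive (67.5%), with a median of 0.076. Arrays were apart in 14.3% (against 11.7% of all genes), 9 genes higher and 2 lower. Without wildtype replicate 2 the count was 43 and the median 0.027. Ndufa12, a complex I subunit, was at -0.046, -0.025 and 0.47 in wildtype and 1.03, 1.05 and 0.98 in knockout, a difference of 0.89 ± 0.15 (SE, interval 0.53 to 1.25; limma, adjusted p = 0.630). Ndufb3 (0.54), Ndufa4 (0.34) and Cox5a (0.29) were apart in the same direction. Of 47 proteasome subunits 31 were positive, and 4 were apart (8.51%, below the share of all genes). Their median of 0.071 was 0.0351 without wildtype replicate 2 and 0.123 without wildtype replicate 1. Psmd5, a chaperone of proteasome assembly, had the largest difference, 0.55, with overlap.

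Of 71 mitochondrial ribosomal protein genes 40 were positive (56.3%), with a median of 0.033 that lay between 0.0178 (without wildtype replicate 1) and 0.0665 (without knockout replicate 1) with 1 array left out. Of these, 5 were apart and higher (7.04%) and 7 apart and lower (9.86%), against 4.11% and 7.62% of all genes. Mrps15 (-0.54), Mrps23 (-0.52) and Mrpl35 (-0.47) stood on the lower side and Mrps33 (0.46) on the higher. Among 31 glycolysis and hypoxia genes, 4 were apart (12.9%, near the share of all genes), namely Pdk1 (-0.46), Pfkfb3 (-0.32), Hk1 (-0.25) and Gapdh (-0.13). Egln3, an oxygen-sensing prolyl hydroxylase, had the largest difference, -0.70, with overlap. The list's median was -0.0034, and median centring of each array turned it to 0.016.

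Stress, oxidant and chromatin genes were apart in both directions. Dnajb14, a cochaperone of the endoplasmic reticulum (ER), was at -0.12, 0.16 and 0.032 in wildtype and 0.72, 0.96 and 0.62 in knockout, a difference of 0.74 ± 0.11 (SE). Hspa1a and Hspa1b, neighbouring and near-identical inducible Hsp70 genes, differed by 1.24 and 1.09 with overlapping arrays, and their intervals both held 0. Of 40 ER folding and stress genes 24 were positive and 7 were apart (17.5%, against 11.7% of all genes), 6 higher and 1 lower in knockout. Under quantile normalization 5 were apart (12.5%), 3 higher and 2 lower. Sec62, a subunit of the translocon, was among the 7 and had the largest difference of that list, at 0.43. Of the oxidant and antioxidant genes, 5 of 28 were apart and higher and 3 lower (28.6% in all, against 11.7% of all genes). The largest difference was that of Prdx3, a mitochondrial peroxiredoxin, at 0.41 with overlap. The oxidase genes Ncf4 (0.37) and Cybb (0.21), which encode p40-phox and gp91-phox, were among the former and Hmox1 (-0.41), the heme oxygenase, among the latter. Among 33 Mediator subunits, 4 were apart and higher, led by Med23 (0.69), and Med25 (-0.24) was lower (15.2% in all, against 11.7% of all genes). Among 28 Polycomb genes, 4 were apart and higher, led by Pcgf5 (0.49), and 3 were lower (25% in all, against 11.7% of all genes). Quantile normalization left 2 higher and 2 lower, and median centring 4 and 1.

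Interferon and survival genes were mixed. Bst2, the antiviral protein tetherin, was at 0.074, -0.047 and -0.10 in wildtype and 0.88, 0.33 and 0.51 in knockout, a difference of 0.60 without overlap. Oasl2 was apart at 0.60 and Oas3 at -0.12, while 24 of the 43 interferon response genes had a negative difference and the median was -0.035. The genes apart made up 6.98% of that list, against 11.7% of all genes. Irgm2, an immunity-related GTPase, had the largest difference, 0.91, with overlap. Bcl2l11, which encodes the pro-death protein BIM, was apart at 0.44 (limma, adjusted p = 0.773). Of 37 apoptosis and survival genes, 3 were apart and higher and 2 lower (13.5% in all, near the 11.7% of all genes).

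**Figure D3:**
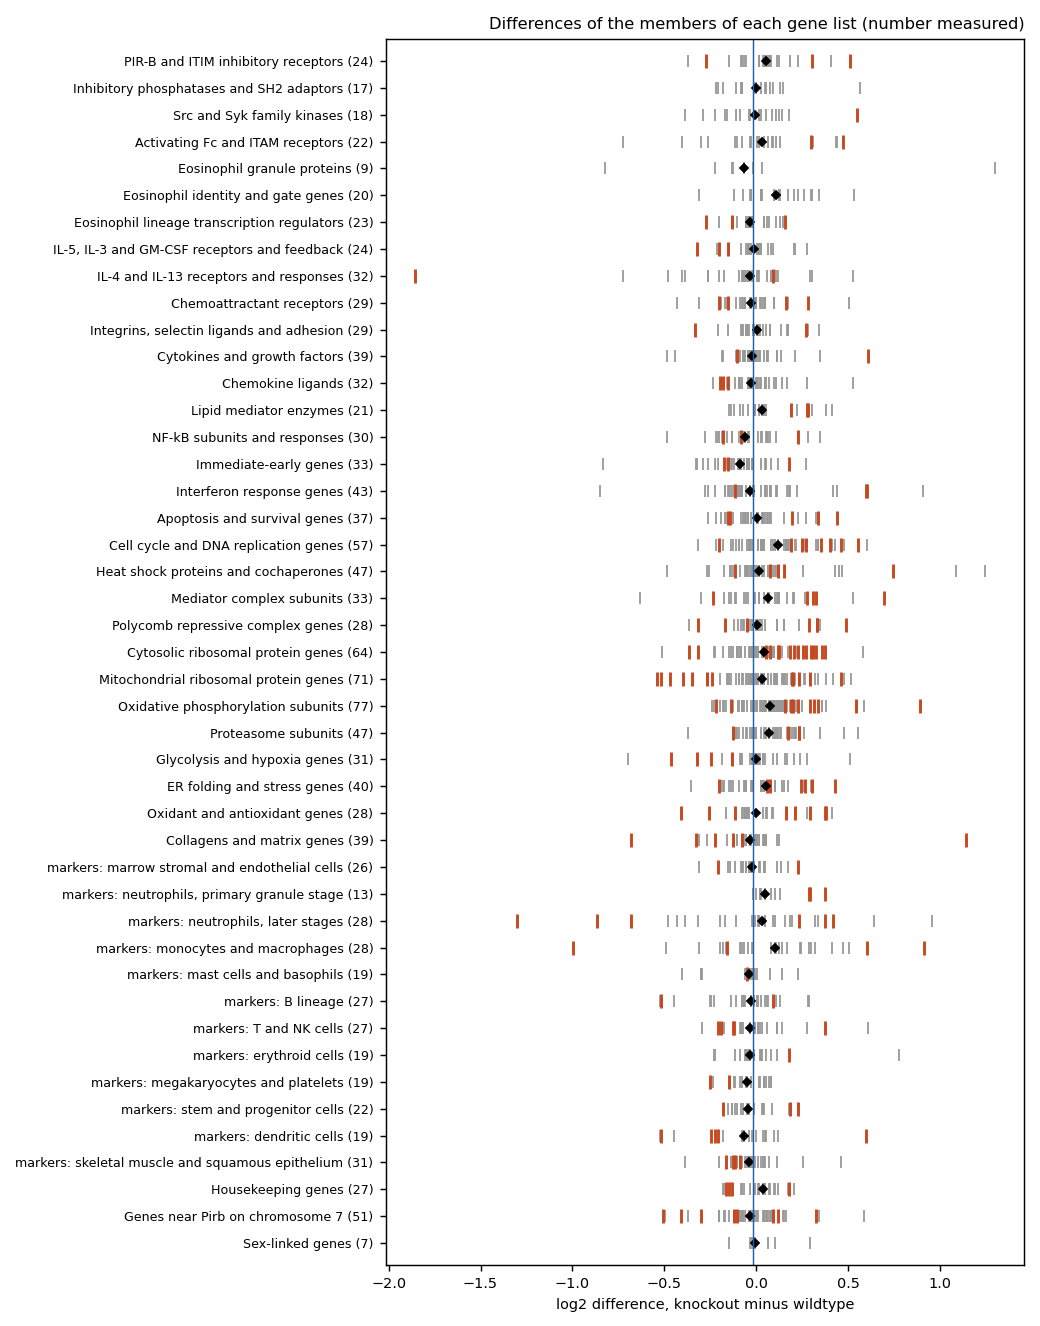
Difference of every measured member of each gene list (log2, knockout minus wildtype; red ticks, genes whose 3 and 3 arrays do not overlap; grey ticks, the others; diamonds, list medians; blue line, median of all genes at -0.0202). Most diamonds lie close to the line, and Retnla at -1.86 is the far left tick of the IL-4 and IL-13 list.

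The genes with the smallest p among those whose arrays did not overlap were of varied function. Coq2, an enzyme of ubiquinone synthesis, was at 0.015, -0.032 and -0.015 in wildtype and 0.54, 0.61 and 0.71 in knockout, and the smallest adjusted p of all genes was shared by it. Its difference was 0.63 ± 0.063 (SE, interval 0.48 to 0.78; limma, adjusted p = 0.602). In marrow without Dox the Coq2 difference was 0.16 ± 0.40 (SE), or 0.64 without the outlying array, and in the esophagus 0.19 ± 0.20 (SE).

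On the positive side Fndc9, a fibronectin domain protein gene, was at -0.80, -0.84 and -1.27 in wildtype and 0.25, 0.33 and 0.43 in knockout, a difference of 1.31 ± 0.14 (SE). Chp1, a calcineurin-like calcium-binding protein, was at -0.51, -1.03 and -0.95 and 0.44, 0.24 and 0.43, a difference of 1.20 ± 0.15 (SE). In both genes the wildtype arrays were low and the knockout arrays lay slightly above the median array. Tmem141, a membrane protein gene, was at 0.30, -0.043 and -0.14 and 0.88, 1.31 and 1.16, a difference of 1.08. Wdr75, a factor in ribosomal RNA processing, differed by 0.95, the ubiquitin-conjugating enzyme gene Ube2w by 0.91 and Med23 by 0.69. The remaining 5 of the 12 leading genes, Mblac1, Pigv, Faf1, Pam and Ncf4, differed by 0.63, 0.50, 0.50, 0.50 and 0.37.

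On the negative side, Mmp9, the gelatinase of granulocyte granules, was at -0.34, -0.023 and 0.015 in wildtype and -0.89, -0.61 and -0.89 in knockout. Its difference was -0.68 ± 0.13 (SE, interval -0.996 to -0.37; limma, adjusted p = 0.734). Apobec3, a cytidine deaminase that restricts retroviruses, was at 1.05, 1.38 and 0.55 and 0.030, -0.28 and -0.14, a difference of -1.12 ± 0.22 (SE). Tlr6, a Toll-like receptor for bacterial lipopeptides, was at 0.18, 0.42 and 0.28 and -0.23, -0.62 and -0.27, a difference of -0.67. Here the wildtype arrays were above the median array and the knockout arrays below it.

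E2f6, a repressor of the E2F family, was at 1.19, 1.28 and 1.45 and 0.40, 0.22 and 0.81, so both genotypes stood above the median array, and its difference was -0.83. Ddt, a homologue of the cytokine MIF, differed by -0.71 and the pseudogene Pisd-ps3 by -0.63. Smaller differences were found for Rps16 (-0.37), Ahcyl2 (-0.33), Ralgds (-0.32), Tlx1 (-0.32) and the lysosomal transporter gene Slc66a1 (-0.30). Adjusted p over these 24 genes lay between 0.602 and 0.738 (limma).

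**Figure D4:**
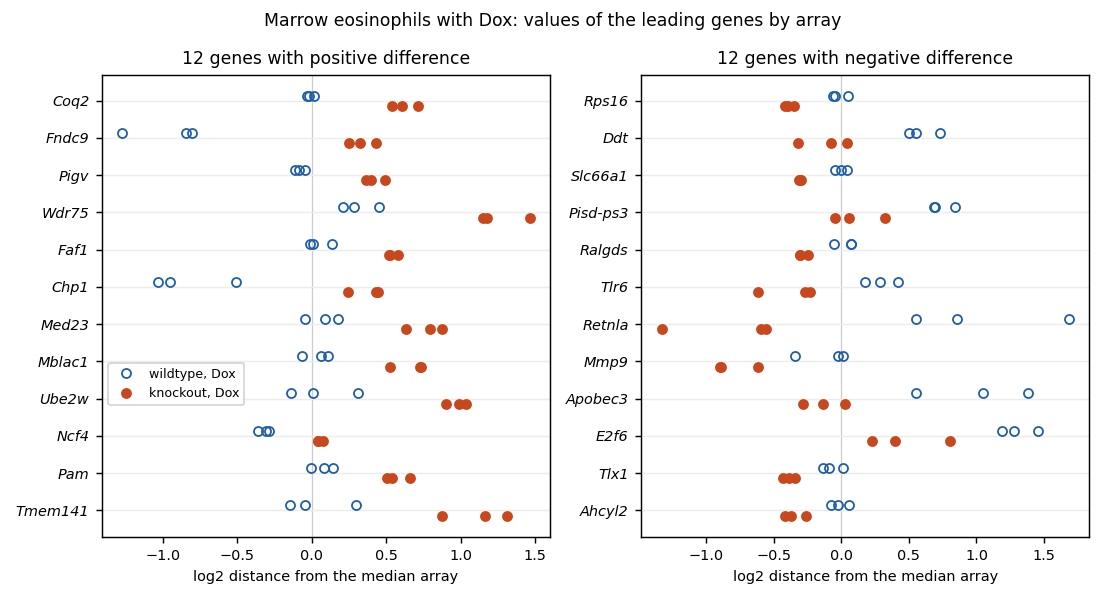
Values by array (log2 distance from the median array) of the 12 genes with a positive and the 12 with a negative difference that had the smallest p among genes whose arrays did not overlap, passing over Mir695 and Gm11837 (open blue circles, wildtype; filled red circles, knockout). Of these 24 genes the difference is largest in size for Retnla, at -1.86.

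Other genes with large differences were noticed after the values were seen. Vsig4, a complement receptor of tissue macrophages, was at -0.12, -0.011 and -0.069 in wildtype and 3.66, 0.75 and 2.06 in knockout. All knockout arrays were higher, but they spread so widely that the difference of 2.23 had an interval of 0.54 to 3.91. Ctse, the aspartic protease cathepsin E, was at -1.82, 0.37 and -1.47 and 0.69, 0.56 and 0.43, a difference of 1.53. Pcbd1, a pterin-recycling enzyme, differed by 1.44 ± 0.22 (SE) without overlap. Csta3 (-1.36), Stfa2l1 (-1.30), both stefin family genes, and Ly6a2 (-1.34) stood on the negative side, all without overlap.

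Markers of other cells the sort could hold were read in the same way. In these bulk samples, fewer cells of a type and less RNA per cell cannot be told apart. Because the values are centred, no marker can be called absent. Of 28 monocyte and macrophage markers 16 had a positive difference, with a median of 0.10 that was 0.0258 without knockout replicate 1, 0.0348 without wildtype replicate 1 and 0.166 without knockout replicate 3. Array medians were 0.54, 0.63 and 0.48 on the wildtype arrays and 0.77, 0.67 and 0.46 on the knockout arrays. Ms4a6c (0.91) and Ms4a7 (0.60) were apart and higher and Ly6c2 (-0.996) and Vcam1 (-0.16) apart and lower (14.3% in all, against 11.7% of all genes). The complement genes C1qa (0.29), C1qb (0.17) and C1qc (-0.16) had overlapping arrays. The part of such cells in the Vsig4 and Retnla values was not tested.

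Neutrophil markers were read by stage. Of 13 genes of the primary granule stage 12 had a positive difference, but most were near 0, with Mpo at 0.00061, Elane at 0.022 and a median of 0.047. Nkg7 (0.37), Fcnb (0.29) and Mgst1 (0.29) were the 3 apart (23.1%, against 11.7% of all genes), all higher. Nkg7 is also in the list of T and natural killer cell markers, so it does not single out neutrophils. Without knockout replicate 2 or wildtype replicate 3 the count of positive differences was 8. Of 28 later-stage genes, 3 were apart and higher and 3 lower (21.4% in all, against 11.7% of all genes). Stfa2l1 was at 1.55, 0.99 and 0.10 in wildtype and -0.42, -0.56 and -0.27 in knockout, Ifitm6 differed by -0.86 and Mmp9 by -0.68. Csf3r (0.37) and Itgb2l (0.42) were apart on the other side, and Ly6g differed by 0.96 with overlap. Array medians of the later-stage list were 0.069, 0.012 and 0.23 on the wildtype arrays and 0.071, 0.071 and 0.27 on the knockout arrays. The part of neutrophil RNA in the Mmp9 value was not tested.

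Class II major histocompatibility genes, which mark B and dendritic cells, had negative differences. H2-Ea was at 0.37, -0.094 and 0.14 in wildtype and -0.75, -0.75 and -1.49 in knockout, a difference of -1.13 ± 0.24 (SE; limma, adjusted p = 0.738). H2-Aa (-0.52), H2-Eb1 (-0.52) and H2-Ab1 (-0.45) had differences of the same sign, of which the first had arrays apart. The median of the 27 B lineage markers was -0.029 and that of 19 dendritic cell markers -0.068. Arrays were apart in 2 of the B lineage markers (7.41%, against 11.7% of all genes), 1 higher and 1 lower in knockout. Of the dendritic cell markers 5 were apart (26.3%), 1 higher and 4 lower. Under median centring 3 of these markers were apart (15.8%), and under quantile normalization 4 (21.1%). Without wildtype replicate 3 the dendritic median turned positive, to 0.0266, and the B lineage median was -0.0135. In marrow without Dox, H2-Ea differed by -1.41, or -1.82 without the outlying array. The knockout arrays there ran from -3.28 to -0.50 (mean -1.48 ± 1.56, SD, n = 3), so that difference rests in large part on the lowest of them. In the esophagus H2-Ea was at 0.85 ± 0.71 in wildtype and 0.50 ± 0.25 in knockout (SD, n = 3 each). H2-Aa differed by -0.14 in marrow without Dox, and leaving the outlying array out turned its sign, to 0.51.

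Among the other marker lists, medians lay between -0.052 and -0.023, for megakaryocytes, stem and progenitor cells, mast cells and basophils, erythroid cells, T and natural killer cells, marrow stroma, and muscle or squamous epithelium. The largest differences of these lists had overlapping arrays for the T cell receptor subunit gene Cd3d (0.61), the muscle myosin gene Mylpf (0.46), the IgE receptor subunit gene Ms4a2 (-0.40) and periostin, Postn (-0.31). Tubb1 (-0.25), the platelet tubulin, was apart and lower. Egfl7 (0.23), in both the stem cell and the marrow stroma lists, was apart and higher. T and natural killer cell markers were apart in 5 of 27 genes (18.5%, against 11.7% of all genes), 1 higher and 4 lower in knockout. Muscle or squamous epithelium markers were apart in 4 of 31 (12.9%), all lower. In the other lists of this group the share apart lay between 5.26% and 13.6%. Among 27 housekeeping genes the largest difference was that of Psmb2, 0.21. Car2, an erythroid carbonic anhydrase, differed by 0.78 with knockout replicate 1 at 2.15. Collagen and matrix genes, 39 in all, had a median of -0.033. Of these, 6 were apart (15.4%, against 11.7% of all genes), 1 higher and 5 lower. Under median centring 4 were apart (10.3%). Col14a1, a fibril-associated collagen, was at 0.027, 0.55 and 0.28 in wildtype and 1.07, 1.57 and 1.62 in knockout, a difference of 1.14 ± 0.19 (SE; limma, adjusted p = 0.666). Sex-linked genes had no arrays apart, with Kdm5d at 0.29, Uty at -0.034, Eif2s3y at 0.10 and Xist at -0.023.

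The same genotypes were compared without Dox. With the outlying knockout replicate 3 of marrow without Dox set aside, 0 of 22180 genes (0%) passed there too, and 1476 had p under 0.05 before adjustment. With that array included, 0 passed and 1506 had p under 0.05 (limma). The genotype by Dox interaction passed for 0 genes (0%), with 1192 at p under 0.05 before adjustment in all 11 marrow arrays and 1695 in the 10 without that array (limma).

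In esophageal eosinophils with Dox, 369 genes (1.66%) passed in the 12-array fit, 239 higher and 130 lower in knockout. That count is not on the same footing as the marrow count, which came from 6 arrays alone. The 12-array fit shares a variance between tissues of unlike spread. An array lay 0.267 to 0.474 from the rest of its group in the esophagus and 0.219 to 0.268 in Dox marrow (root mean square). The genes chosen here to follow back into the marrow were picked with the esophageal result in view, so their esophageal values are a description. Of 22 such genes, 6 were apart in marrow (27.3%, against 11.7% of all genes), 2 higher and 4 lower in knockout. These counts were the same under median centring and under quantile normalization. A positive difference in marrow was found in 10 of the 22, and the median was -0.022, where their esophageal median was 1.58. With 1 array left out the marrow count lay between 6 (without knockout replicate 3) and 15 (without knockout replicate 2) and the median between -0.0514 (without wildtype replicate 2) and 0.079 (without knockout replicate 2). Csf1, the macrophage growth factor, was at 0.0070, -0.33 and -0.052 in wildtype and -0.040, -0.22 and -0.053 in knockout marrow, a difference of 0.021 ± 0.11 (SE, interval -0.24 to 0.29), against 2.04 ± 0.23 (SE) in the esophagus. The marrow interval lay below the esophageal estimate, but Csf1 was picked with that estimate in view. The direct test, the genotype by tissue interaction, did not pass for Csf1, as given below.

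The other genes followed back varied in their marrow intervals. Ikzf2, an Ikaros family transcription factor, differed by -0.13 (interval -0.61 to 0.35) in marrow and 2.26 in the esophagus. Cxcl10, an interferon-induced chemokine, differed by 0.048 (interval -0.14 to 0.24) and 1.16, and Clec4a1, a C-type lectin, by -0.033 (interval -0.35 to 0.28) and -1.81. Adamdec1, a metalloprotease-like gene, was apart in marrow with the opposite sign, -0.33 against 2.11. Zdhhc13, a palmitoyltransferase, was apart in marrow with the same sign. It was at 0.026, -0.23 and -0.022 in wildtype and 1.02, 0.71 and 0.42 in knockout marrow, a difference of 0.79 ± 0.16 (SE; limma, adjusted p = 0.738), against 2.10 in the esophagus. Siglecf differed by 0.95 in the esophagus, above the upper end of its marrow interval. Tnip3, an inhibitor of NF-kB signalling, was apart in marrow at 0.22 against 1.498, and Thbd, thrombomodulin, differed by 0.024 with overlap against -0.69. Slc26a8, an anion transporter gene, was apart in marrow at 0.46 and differed by -0.036 in the esophagus.

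**Figure D5:**
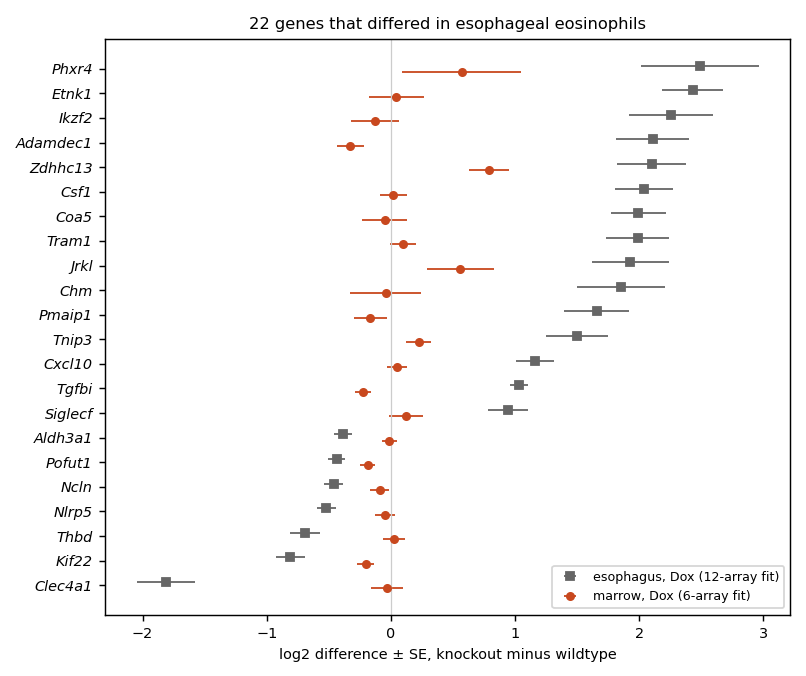
Knockout minus wildtype differences (log2, bars ± SE) of 22 genes in esophageal eosinophils (grey squares, 12-array fit) and in marrow eosinophils (red circles, 6-array fit), both with Dox. Csf1 is at 2.04 in the esophagus and 0.021 in marrow, and most red circles lie near 0.

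The genotype by tissue interaction, coded as the marrow difference minus the esophageal difference, passed for 5 of 22180 genes (0.0225%), with 1979 at p under 0.05 before adjustment (limma). All 5 were near 0 or below it in marrow and positive in the esophagus. The count depended on single arrays. It was 207 without esophageal wildtype replicate 1, 18 without esophageal knockout replicate 3, 17 and 10 without esophageal wildtype replicates 2 and 3, 3 without marrow knockout replicate 2, and 2 without marrow wildtype replicate 1 or 3, marrow knockout replicate 3 or esophageal knockout replicate 1. Csf1 did not pass it (adjusted p = 0.125), nor did Retnla, Siglecf, Adamdec1, Ikzf2, Cxcl10 or Clec4a1.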

How the data were processed

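The authors deposited one table of log values, taken here as log2, for 17 Affymetrix arrays and 33793 probe sets. The submitters' processing notes name Affymetrix Expression Console; the summarization, scaling and log base are not given in the sources used here. Each probe set had been centred, since 97.08% held 2 central values that mirrored each other around 0, so values carry no brightness. Probe sets with 1 gene symbol (23521, of which 23328 were found in the GRCm38.p6 gene table; 1814 had several symbols and 8458 none) were averaged to 22180 genes. No column was left unused.

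The 6 arrays were fitted with limma 3.58.1 (R 4.3.3) as 2 group means without a block, with eBayes, two-sided, Benjamini-Hochberg over all genes, threshold 0.05. "Apart" means that the 3 and 3 arrays do not overlap. Interactions used 11 or 10 marrow arrays, or 12 Dox arrays. The code was tested on simulated data.

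Members and the 46 gene lists were chosen with earlier results of these data known. Genes named in the text are the 12 in each direction with the smallest p among genes that were apart (passing over model, microRNA and small nucleolar RNA IDs, here Mir695 and Gm11837), the largest difference of each list, 34 of 39 fixed genes that were measured, and genes said to be noticed later; other list members are examples chosen after their values were seen. No label says whether replicate numbers pair the samples, and the main fit did not pair them. Deviations from the group mean correlated at 0.0256, 0.00834 and 0.0149 between same-numbered arrays of the genotypes, which cannot decide it. The number of arrays limits the precision.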

Additional observations from a re-analysis of the deposited data

Results flagged for a closer look

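The following 5 genes were found after their values were seen, because the test of the genotype by tissue interaction itself passed (limma, 12 arrays, Benjamini-Hochberg over all genes). Parp6, a mono-ADP-ribosyltransferase gene, had an interaction of -1.69 (adjusted p = 0.000994), from 0.10 in marrow and 1.79 in the esophagus. For Tgfbi, an extracellular matrix protein gene, it was -1.25 (adjusted p = 0.00169), from -0.22 and 1.03. Suz12, a core Polycomb subunit, had -1.60 (adjusted p = 0.0273), from 0.019 and 1.62. Ogfr, the opioid growth factor receptor, had -1.64 (adjusted p = 0.0336), from -0.39 and 1.24. Hspa9, the mitochondrial Hsp70, had -1.57 (adjusted p = 0.0427), from -0.060 and 1.51. In marrow the arrays of Ogfr and Tgfbi were apart and lower in knockout, and those of Parp6, Suz12 and Hspa9 overlapped. Tgfbi is the only one of the 5 that belongs to the 22 esophageal genes followed above.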

How the results depend on the processing

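The count of genes that passed in Dox marrow was 0 in all 15 alternatives, with a smallest adjusted p between 0.0692 (quantile normalization) and 0.783 (replicate number as a block). The number at p under 0.05 before adjustment was 1397, and 407 or 745 where all 17 arrays, or 16 without the outlying array, shared the variance; it was 1371 with the replicate block. The share of genes with an interval within ±0.5 lay between 63.3% and 78.4%. Of 1710 differences of the 114 named genes under these alternatives, 39 in 21 genes changed sign, none in a gene with p under 0.05. Many of these genes were picked because their arrays do not overlap. Leaving out 1 array cannot change the sign of such a gene, so for them those fits are no test. The genotype by Dox interaction gave 0 throughout. The genotype by tissue count of 5 was 1 with all 17 arrays, 2 with the replicate block, 0 with quantile normalization, and between 2 and 207 with 1 array left out; the cause was not tested. Scaling moved the median of all genes from -0.0202 to -0.0004 or -0.0071, and median centring turned the IL-5 list median from -0.012 to 0.0076. A filter on dim probe sets could not be run on centred values. Counts of list members at p under 0.05 under each alternative, and counts of genes apart under both scalings, were added after seeing the data.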
